A study of Homo sapiens with 16 samples.

Results

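The regions described here are Argonaute 2 (Ago2) peaks in 3′ untranslated regions (3′ UTRs) of genes that had no other peak in the authors' deposited table. A row was a member if its annotation class was the 3′ UTR and its gene name stood in exactly 1 of the 4768 rows, whatever the values of that row. This gave 886 members in 886 genes, of 4718 distinct peaks and 2213 genes in all. They made up 18.8% of the peaks, 40.0% of the genes and 30.6% of the 2894 peaks in 3′ UTRs.

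The cells were 293S, an established line derived from human embryonic kidney and grown here as an adherent layer. Cultures were untreated or exposed for 30 min to hippuristanol at 1 µM, with 2 cultures per treatment per the labels, and each was divided for RNA-seq and for CLIP (crosslinking, immunoprecipitation and sequencing of the RNA bound by a protein) with Ago2 antibodies from Abnova, Santa Cruz and Sigma. That makes 12 CLIP libraries, with 6 in each treatment, beside 4 from RNA-seq. The authors' deposited table gives each peak a log average over both treatments and a log ratio of treated over untreated cells, with no value per library, so no difference between treatments has a replicate check and no test was made. No label or header states the base of the logarithm, and all values are in the authors' log units and not turned into folds. A positive log ratio means a higher value in treated cells. Depth per library is unknown. RNA-seq values were not analysed here, so a change in Ago2 on an mRNA and a change in the amount of that mRNA cannot be told apart. None of 15 marker genes of liver, blood, connective tissue, epithelium, glia or muscle had a peak. Of 7 neurofilament, vimentin and keratin genes taken as markers of 293 cells, NEFL and VIM had peaks and none was a member.

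Ago2 is the protein that holds a microRNA and brings it to complementary sites, mostly in 3′ UTRs, where the bases of the seed near the 5′ end of the microRNA pair with the transcript. Bound Ago2 recruits TNRC6 proteins and deadenylases, which lower translation and shorten the life of the mRNA. Hippuristanol is a natural product that inhibits eIF4A, the RNA helicase that unwinds the 5′ UTR so that the ribosome can load. Many mRNAs carry several microRNA sites along their 3′ UTR. Genes with a single listed peak are those where 1 stretch of the transcript held all of the Ago2 signal that passed the authors' filters.

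Relative to like 3′ UTRs, seed matches in annotated 3′ UTRs of the single-peak genes were richest for the miR-19, miR-30 and miR-25/92 families. The let-7 family was not among the richest. Most families searched, let-7 included, are described in many cell types, so breadth of expression cannot set the richest apart. A seed match is the 7-base complement of bases 2 to 8 of a microRNA. It was searched on the sense strand of the longest annotated 3′ UTR of each gene, since the sequence under the peaks themselves was not used here. An annotated 3′ UTR was found for 878 of the 886 members. The microRNAs below are of the families with the highest shares relative to like 3′ UTRs, with let-7 for comparison. They are RefSeq sequences (GRCh38.p14) written 5′ to 3′ with the seed in capitals.
hsa-miR-19b-3p: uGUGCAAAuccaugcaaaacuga
hsa-miR-30a-5p: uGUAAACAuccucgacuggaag
hsa-miR-25-3p: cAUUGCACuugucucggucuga
hsa-miR-92a-3p: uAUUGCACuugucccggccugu
hsa-miR-15a-5p: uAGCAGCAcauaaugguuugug
hsa-miR-16-5p: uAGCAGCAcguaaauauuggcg
hsa-miR-301a-3p: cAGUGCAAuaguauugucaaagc
hsa-miR-17-5p: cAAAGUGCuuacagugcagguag
hsa-miR-20a-5p: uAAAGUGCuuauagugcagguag
hsa-miR-103a-3p: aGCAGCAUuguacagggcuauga
hsa-let-7a-5p: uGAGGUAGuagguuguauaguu

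The 2 microRNAs of the miR-25/92 family share 1 seed, as do miR-15a with miR-16 and miR-17 with miR-20a. miR-301a stands for the miR-130 family and miR-103a for a family that includes miR-107. The matches searched were TTTGCAC for miR-19, TGTTTAC for miR-30, GTGCAAT for miR-25/92, TGCTGCT for miR-15/16, TTGCACT for miR-130, GCACTTT for the miR-17 family, ATGCTGC for miR-103 and CTACCTC for let-7. Several of these overlap: a stretch such as the one in CPEB3 below can match miR-19, miR-130 and miR-17 at once, and the matches of miR-15/16 and miR-103 share 6 bases.

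The miR-19 match stood in 25.7% of the single-peak genes' 3′ UTRs, against 17.7% of annotated 3′ UTRs of like length and GC content, a ratio of 1.46. For that comparison 18408 annotated 3′ UTRs, per gene the longest with a RefSeq identifier, were divided into 10 classes of length and 3 of GC content. Over all of them, whatever their length, the share was 13.1%. The 3′ UTRs of the single-peak genes were chosen by the other rule given above. For miR-30 the share was 28.1% against 21.0%, a ratio of 1.34 (15.2% of all 3′ UTRs). The miR-25/92 family followed with 19.1% against 14.3%, also a ratio of 1.34 (10.4% of all). Next came miR-15/16 with 33.0% against 25.6% (20.6% of all), miR-130 with 22.9% against 18.3% (13.5% of all), the miR-17 family with 32.8% against 26.8% (20.2% of all) and miR-103 with 18.7% against 15.4% (11.8% of all). Their ratios were 1.29, 1.25, 1.23 and 1.22. The miR-17 family match directly after CCCA, as in the repeated Alu sequence, had a ratio of 0.92 (8.54% against 9.27%). Without CCCA before it the ratio was 1.33 (27.7% against 20.9%). These shares describe whole 3′ UTRs, and a match is not shown to lie in the peak or to be bound.

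The 12 matches below lie in members that the text describes later, each with 14 bases before and 1 base after the match. They are read from GENCODE 29 transcripts, with GRCh38 coordinates and the match in capitals.
CPEB3, miR-19, chr10:92051985-92052006, minus strand: tagaatggtactgaTTTGCACt
CPEB4, miR-19, chr5:173957335-173957356, plus strand: tagttgcaaagtgtTTTGCACt
RHEBL1, miR-19, chr12:49064955-49064976, minus strand: gtggcatcctcatgTTTGCACa
GPR137B, miR-19, chr1:236208481-236208502, plus strand: caatcatgttgtagTTTGCACa
LRIG3, miR-19, chr12:58872183-58872204, minus strand: ttacttcattatatTTTGCACa
SEMA4C, miR-19, chr2:96860568-96860589, minus strand: gtgtagctcctactTTTGCACa
WDR26, miR-30, chr1:224387692-224387713, minus strand: agaaactccacagcTGTTTACa
B4GALT6, miR-30, chr18:31625478-31625499, minus strand: ccagcagtccacagTGTTTACa
RHEBL1, miR-30, chr12:49064915-49064936, minus strand: ggcctggatgtcaaTGTTTACa
PCTP, miR-25/92, chr17:55776437-55776458, plus strand: acgatcattccattGTGCAATt
ZNF224, miR-15/16, chr19:44108685-44108706, plus strand: actacatgtgtcttTGCTGCTa
KIF5C, miR-15/16, chr2:149023515-149023536, plus strand: tagggaacaaaaagTGCTGCTa

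Other families stood near or below their like-for-like share. The ratios were 1.09 for miR-181, 1.08 for miR-26, 1.04 for miR-18, 1.03 for miR-7 and 1.00 for miR-10. Below 1 were miR-27 with 0.97, miR-21 with 0.94 and let-7 with 0.90. The muscle and liver microRNAs miR-1 with miR-206 and miR-122, taken as families of other tissues, had ratios of 0.92 and 0.91. Thus let-7, a family found in most differentiated cells, had a ratio as low as those. The let-7 match stood in 91 single-peak genes (10.4%, against 11.5% of like 3′ UTRs and 9.12% of all).

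In genes with more than 1 row, the let-7 match was more frequent: 15.3% of 648 genes with a 3′ UTR peak had it, against 11.7% of like 3′ UTRs, a ratio of 1.31. For miR-19 these genes had a ratio of 1.60, for miR-130 1.40, for miR-15/16 1.39 and for miR-30 1.20. Of the 17 families searched, let-7 thus differed most between the single-peak and the other genes. The comparison is a count over genes of 1 table and was not tested. Single-peak genes with a let-7 match include LRIG3, SEMA4C and TRIM71. TRIM71, an RNA-binding ubiquitin ligase of stem cells and a known let-7 target, has 6 let-7 matches in its 6015-base annotated 3′ UTR, of which the first 2 are given.
LRIG3, let-7, chr12:58872532-58872553, minus strand: aaaagcttaacataCTACCTCa
SEMA4C, let-7, chr2:96860552-96860573, minus strand: tgcacaggcaccagCTACCTCa
TRIM71, let-7, chr3:32891969-32891990, plus strand: acattgcttaagtcCTACCTCa
TRIM71, let-7, chr3:32892049-32892070, plus strand: gtgataatttctatCTACCTCa

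**Figure D1:**
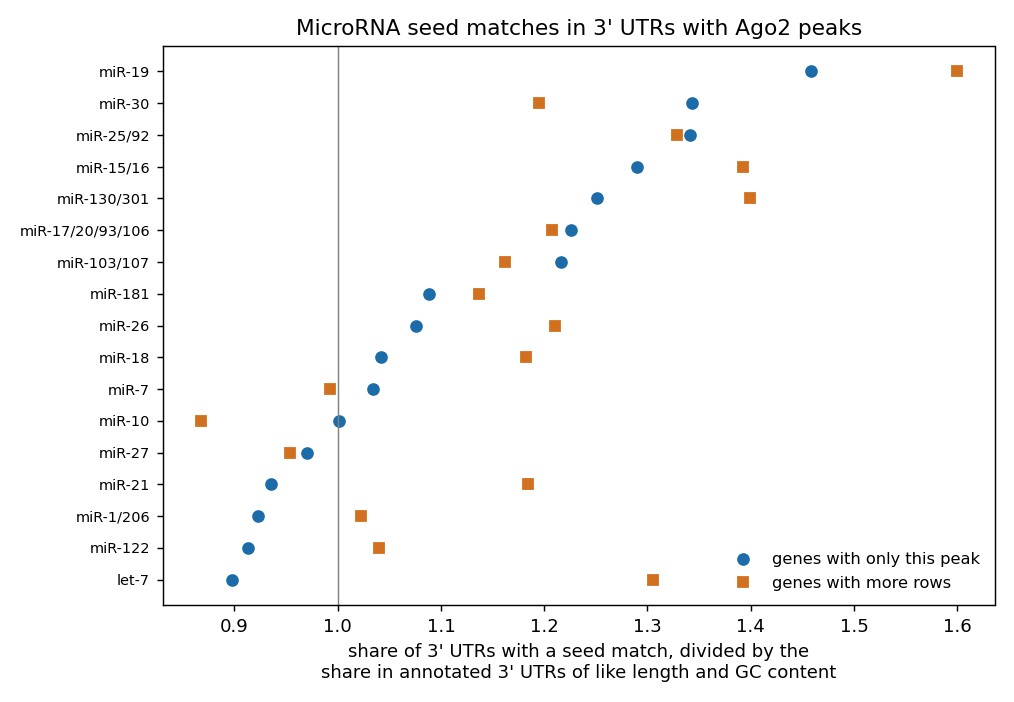
Ratio of the share of 3′ UTRs with a seed match to the share in annotated 3′ UTRs of like length and GC content (x axis, no unit) for 17 microRNA families (y axis), in the 878 single-peak genes (circles) and the 648 genes with more rows (squares). Among single-peak genes miR-19 stands highest at 1.46 and let-7 lowest at 0.90, and the widest gap between the symbols is that of let-7.

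The matches to the miR-17 family in 4 members with very different log ratios follow, in capitals. That of CPEB3 overlaps its miR-19 match given above.
BBIP1, miR-17 family, chr10:110900341-110900362, minus strand: tgaatgataactgaGCACTTTa
ENO2, miR-17 family, chr12:6922995-6923016, plus strand: ctcattggggttccGCACTTTc
CPEB3, miR-17 family, chr10:92051982-92052003, minus strand: aatggtactgatttGCACTTTg
KIF5C, miR-17 family, chr2:149024654-149024675, plus strand: atttgttaaatgttGCACTTTg

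A seed match in the 3′ UTR went with little difference in the log ratio. Single-peak genes with a miR-17 family match had a median log ratio of 0.20, and those without one 0.14. For miR-19 the medians were 0.14 with and 0.17 without a match, for miR-15/16 0.15 and 0.16, and for let-7 0.16 and 0.15. The widest differences were those of miR-10, with 0.02 against 0.18, and miR-21, with 0.29 against 0.14. The shares of these 2 families lay close to or below those of like 3′ UTRs, with the ratios of 1.00 and 0.94 given above. Genes with no match to any of 15 families numbered 148 and had a median of 0.13, and the 444 genes that matched 3 or more families had 0.15. Their annotated 3′ UTRs had a median length of 406.5 and 2728 bases.

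Over all 886 members the log ratio was centred slightly above 0. The median was 0.15, the middle 50% ran from −0.33 to 0.63, and the lowest value was −1.83. Above 0 lay 518 members (58.5%). A log ratio above 1 was listed for 102 members (11.5%), beside 11.3% of all 4718 distinct peaks. Below −1 lay 43 members (4.85%), beside 4.22% of all peaks. Both shares were close to the background. The split depends on where 0 is set: with log ratios taken relative to the median of all peaks, 62 members lay above 1 and 73 below −1.

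Having a single peak went with no visible offset in the log ratio. The 2008 3′ UTR peaks of the 651 genes with more than 1 row had a median of 0.16, with 233 (11.6%) above 1 and 85 (4.23%) below −1. Their interquartile range was 0.94, against 0.96 for the members. Just outside the rule, the 524 3′ UTR peaks of genes with 2 rows had a median of 0.19, with 10.5% above 1 and 3.05% below −1. Peaks of genes with 5 or more rows had a median of 0.15 and 13.1% above 1. Among genes with a single peak elsewhere, the 384 in coding sequence had a median of 0.15, the 76 in 5′ UTRs 0.19 and the 97 in non-coding exons 0.12.

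**Figure D2:**
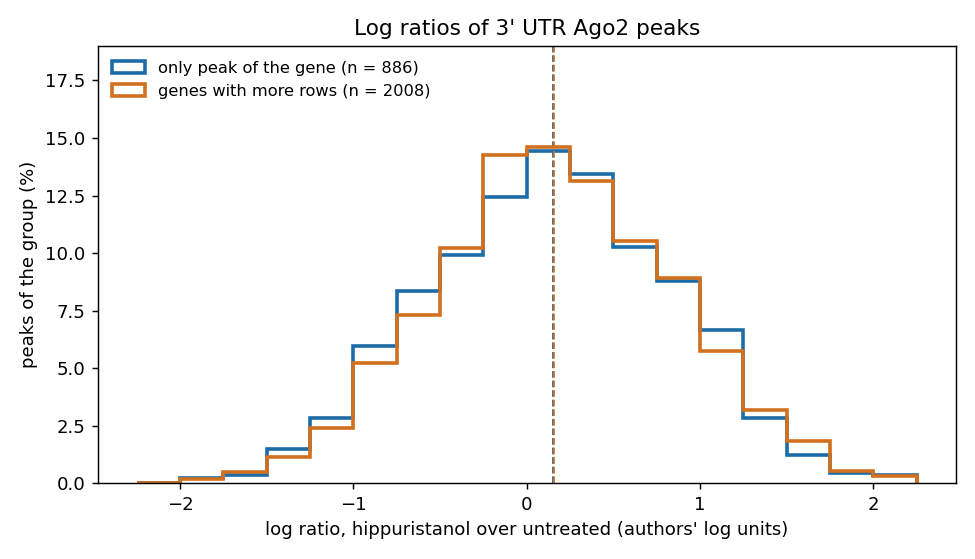
Share of peaks (y axis, % of the group) by log ratio of hippuristanol over untreated (x axis, authors' log units, bins of 0.25) for the 886 single 3′ UTR peaks and the 2008 3′ UTR peaks of genes with more rows, with dashed lines at the medians. The outlines nearly coincide, and the medians are 0.15 and 0.16.

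The single peaks were higher in level and shorter than 3′ UTR peaks of genes with more rows. Their median log average over both treatments was −6.10, against −6.62 for 3′ UTR peaks of genes with more rows and −6.76 for all peaks. The difference of 0.52 was present with 1 value per gene as well, where it was 0.57. Members spanned 18 to 104 nt, with 34 nt as the median, against 41 nt in genes with more rows. The authors' filters could act on both measures and were not known here. Single peaks of other classes also had median log averages above the −6.76 of all peaks. By length, only those in coding sequence and 5′ UTRs were shorter than the 39 nt median of all peaks. Peaks of genes with more rows were not compared in those classes. Single peaks in 5′ UTRs had a median log average of −5.70 and a median length of 30.5 nt, those in coding sequence −6.32 and 31 nt, and those in non-coding exons −4.79 and 50 nt. No member shared a base with a listed peak of another gene.

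The members at the top of the level scale had varied roles. ARHGAP4, a GTPase-activating protein, stood above every other member with a log average of 1.28, and its log ratio was −1.75 (chrX:153173136-153173164, hg19, minus strand). RHEBL1, a relative of the mTOR activator RHEB, had 0.14 on both scales (chr12:49458679-49458718, minus strand). GPR137B, a lysosomal membrane protein, stood at −0.79 by log average and 0.69 by log ratio. These 3 abundant peaks thus had quite different log ratios.

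HES5, a transcriptional repressor switched on by Notch, stood at −1.01 by log average and 0.55 by log ratio. The chondroitin sulfate enzyme CSGALNACT1 had −1.44 and −0.98, TRIM71 −1.54 and −0.76, and EFNA1, an ephrin ligand, −1.86 and 0.44. Of these 7 peaks, 6 had log ratios between −1 and 1, with differing signs. The annotated 3′ UTRs of ARHGAP4 (353 bases) and HES5 (724 bases) hold no match to any of the 17 families. Those of RHEBL1 (418 bases) and GPR137B (751 bases) hold matches of 2 families each, miR-19 among them, as the windows above show.

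**Figure D3:**
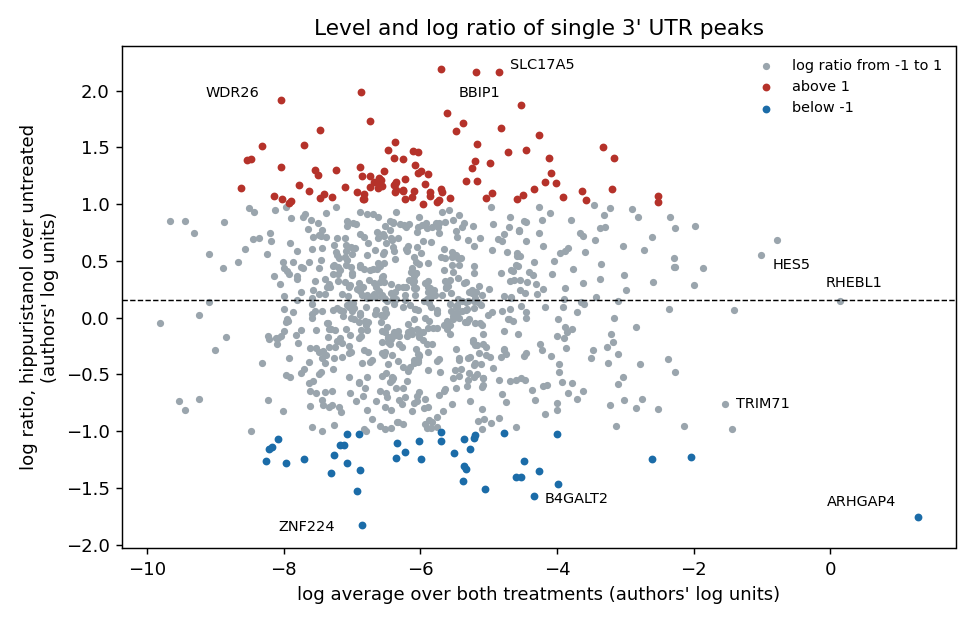
Log ratio of hippuristanol over untreated (y axis) against log average over both treatments (x axis), both in the authors' log units, for each of the 886 single 3′ UTR peaks, with the median log ratio of 0.15 dashed. ARHGAP4 at 1.28 is the highest level and lies near the bottom of the log ratios, and members above 1 and below −1 occur along most of the level scale.

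Level and log ratio were hardly related across the members, with a Pearson r of −0.04 and a Spearman rho of −0.03 over 886 peaks measured in the same libraries. The 222 members of the lowest quartile by log average had 21 above 1 and 12 below −1, and the 222 of the highest 24 and 12.

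Among the highest log ratios were those of genes of cilia, lysosomes, the nuclear pore and the secretory pathway. BBIP1, a subunit of the BBSome that carries cargo into cilia, had 2.17 (chr10:112660092-112660121, hg19, minus strand). SLC17A5, the lysosomal exporter of sialic acid, had 2.16 (chr6:74304730-74304759, minus strand). NUPL1, a nucleoporin of the central channel, had 1.99 (chr13:25916077-25916105, plus strand). The log averages of these 3 were −5.18, −4.85 and −6.88, so they were not all among the weaker peaks.

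WDR26, part of the CTLH ubiquitin ligase, had a log ratio of 1.91 at the low level of −8.04. LRIG3, a transmembrane modulator of growth factor receptors, had 1.88 (chr12:59266302-59266340, minus strand). B4GALT6, which makes lactosylceramide in the Golgi, had 1.80 (chr18:29205436-29205470, minus strand). DCAF8, a substrate receptor of CUL4 ubiquitin ligases, had 1.74 and PCTP, a phosphatidylcholine carrier, 1.72. TRAM2, a protein of the translocation channel of the endoplasmic reticulum, had 1.68. Of the genes named here, SLC17A5, LRIG3, B4GALT6 and TRAM2 encode membrane proteins.

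The lowest log ratios were found in genes of varied roles, from a zinc finger repressor to enzymes and a motor protein. ZNF224, a KRAB zinc finger protein, had −1.83 (chr19:44612438-44612459, hg19, plus strand), followed by ARHGAP4 with −1.75. B4GALT2, a galactosyltransferase of N-glycans, had −1.57 (chr1:44456785-44456808, plus strand). TACC1, a coiled-coil protein of the centrosome, had −1.52 and CC2D1A, a C2-domain protein of signalling and endosomes, −1.51.

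SEMA4C, a semaphorin that binds plexins, had −1.47 (chr2:97526267-97526324, minus strand). ENO2, the enolase of neurons, had −1.44 (chr12:7032198-7032263, plus strand). ANKRD13B, an ankyrin protein of endocytosis, had −1.41, AMOTL2, a junction protein of the Hippo pathway, −1.40 and KIF5C, a kinesin heavy chain, −1.37. Genes at both ends share seed matches: LRIG3 at 1.88 and SEMA4C at −1.47 both carry matches to let-7 and miR-19, and BBIP1 at 2.17 and ENO2 at −1.44 both carry one to the miR-17 family. A miR-17 family match stood in 7 of the 10 members with the highest log ratios and in 5 of the 10 with the lowest. The share over the 878 members with an annotated 3′ UTR was 32.8%. Among the highest, SLC17A5, NUPL1 and TRAM2 carry a match directly after CCCA, as in the Alu sequence. At least 1 of the 17 families matched in 10 of the highest and 8 of the lowest, and ARHGAP4 and B4GALT2 had no match.

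Lists of genes by role are described next. Of the 886 members, 407 (45.9%) were in at least 1 of 28 lists and 479 in none. Lists of at least 8 members are given by their number of members, their median log ratio, beside 0.15 for all members, and their counts above 1 and below −1, and smaller lists by some of their members. These counts stand beside 11.3% above 1 and 4.22% below −1 over all 4718 distinct peaks. Most lists are small, so their counts are few.

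Genes of mRNA decay and binding lay mostly above the median, whereas TRIM71, the only member in the list of small RNA machinery, had −0.76. The list of deadenylation, decapping and mRNA-binding factors had 10 members with a median of 0.53, of which 2 lay above 1 and 0 below −1. CPEB4, a cytoplasmic polyadenylation element binding protein, had 1.40 and its relative CPEB3 had 0.80. BTG1 and TOB1, which bring the CCR4-NOT deadenylase to mRNAs, had 1.21 and 0.63. KHSRP, a protein that promotes decay of AU-rich mRNAs, was lowest at −0.998. Matching miR-19 were CPEB3, CPEB4 and BTG1.

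Of genes that earlier work describes as let-7, miR-15/16, miR-17 or miR-19/92 targets, 11 were members, with a median of 0.71, 4 above 1 and 0 below −1. ACVR1B, an activin receptor, had 1.19 and ITCH, a ubiquitin ligase, 0.71. At the other end stood TRIM71 with −0.76 and VEGFA, the endothelial growth factor, with −0.73. ITCH and VEGFA were named after their values were seen. CPEB3 and CPEB4 stand in this list too, and several of its values were known from earlier work on this table.

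Splicing factors, hnRNPs and RNA helicases had 12 members, a median of 0.45 and none beyond 1 in either direction. RBM6, a splicing regulator, had 0.92 and SRSF11, an SR protein, −0.28. RBM14 and RBM33, the members with the highest log averages, had log ratios of 0.46 and 0.06. Of the 12, 9 lay above the median of all members.

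Genes of the translation machinery were few and spread widely. Ribosomal proteins and elongation factors had 4 members, among them RPL12 with 1.13, RPS21 with −0.18 and RPS3 with −0.49. Initiation factors and their regulators had 6, with a median of 0.10. EIF2S1, the alpha subunit of eIF2, had 1.29, and EIF3A, the scaffold of eIF3, −0.73. PDCD4, a natural inhibitor of eIF4A, had 0.37, and EIF4E2, a cap-binding repressor, −0.39. Ribosomal proteins and initiation factors thus both had members on each side of the median.

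Transcription factors lay below the median more often than above it. The families listed had 18 members with a median of −0.26, 0 above 1 and 1 below −1. That one was NR1H2, the oxysterol receptor LXR beta, with −1.35. The glucocorticoid receptor NR3C1 had 0.91. SOX21 and HOXC8, the most abundant, had 0.45 and 0.34, and the 3 neighbouring HOXB genes HOXB6, HOXB7 and HOXB9, named after their values were seen, had −0.33, −0.24 and −0.34.

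Zinc finger genes numbered 24, with a median of −0.06, 3 above 1 and 1 below −1. ZBTB44 had the highest value, 1.15, and ZNF224 the lowest. ZBTB7B, a regulator of T cell fate, stood at −3.29 by log average and 0.80 by log ratio, and ZNF687 at −4.71 and −0.01. Chromatin regulators had 14 members with a median of −0.04, 2 above 1 and 2 below −1, from CHD1, a nucleosome remodeller, at 1.51 to SMARCE1, a subunit of the BAF remodelling complex, at −1.28. SUV420H2, a methyltransferase of histone H4, and EZH1, a Polycomb methyltransferase, had −0.21 and 0.77.

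Replication-dependent histone mRNAs mostly end in a stem-loop and not in a poly(A) tail. Their genes had 9 members with a median of −0.16 and none beyond 1. Of them, 8 lay at or below the median of all members. HIST1H3B had 0.61 and HIST1H3H, the most abundant of them with a log average of −2.53, had −0.81. The members belong to different histone classes. Copies within 1 class can be alike in sequence, so reads may be split among them, which was not tested. Whether the RNA preparation treated transcripts without a poly(A) tail differently was not tested.

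Regulators of the hypoxia response and the circadian clock had 8 members with a median of −0.46, 0 above 1 and 1 below −1. HIF1A, the oxygen-regulated transcription factor, had −1.06. EGLN2, a prolyl hydroxylase that marks HIF proteins, had −0.88 at a log average of −4.85, and CRY2, a repressor of the clock, 0.13 at −3.64. AHRR, the repressor of the aryl hydrocarbon receptor, had the highest value, 0.61. This list was put together from member names with some values in view, as were those of the endoplasmic reticulum, autophagy, adhesion, Ras signalling and the nuclear pore, so its median is a description of chosen names.

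Growth and death pathways differed in spread. Cell cycle genes, 12 in number, had a median of 0.22 and none beyond 1, from CDK19, a kinase of the Mediator complex, at 0.81 to RBL2, a pocket protein, at −0.27. CHEK1, the checkpoint kinase, and CCNJ, a cyclin, were the most abundant and had 0.28 and −0.20. Among apoptosis genes, FAS, a death receptor, had 1.09, BCL2L12 0.58 and TNFRSF10B, a TRAIL receptor, −0.27.

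Wnt, TGF-beta, Notch and Hedgehog genes had 15 members, a median of −0.03, 1 above 1 and 2 below −1. ACVR1B was highest with 1.19. HES4, a HES family repressor, was lowest with −1.22, whereas its relative HES5 had 0.55. Both peaks were high in level, with log averages of −2.03 and −1.01. Of the 15, 11 lay at or below the median of all members.

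Ras, PI3-kinase and mTOR genes, 21 in number, had a median of 0.22 with 4 above 1 and 0 below −1. RIT1, a Ras-like GTPase, had 1.46 and PIK3R1, the regulatory subunit of PI3-kinase, −0.77. IRS2, an adaptor of the insulin receptor, had 0.49 at a log average of −4.34. Protein kinase genes, with the regulatory subunits PRKAR1B and CSNK2B counted among them, had 25 members with a median of 0.27, 5 above 1 and 1 below −1. NEK3 had 1.48 and PRKCD, protein kinase C delta, −1.15, and the abundant PRKAR1B and MAP3K9 had −0.85 and 0.97.

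Protein phosphatase genes had 12 members, a median of 0.16, 3 above 1 and 0 below −1. PPP2R1B, a scaffold of protein phosphatase 2A, had 1.64. PPP1R37 and PPP1R12C, regulators of protein phosphatase 1, were the most abundant and had −0.77 and −0.58. The 31 genes of ubiquitin and the proteasome had a median of −0.01, 2 above 1 and 0 below −1. RNF44, a RING finger protein, had 1.41 and UBXN1, an adaptor of the segregase p97, −0.95. PSMD10, a chaperone of proteasome assembly, had 0.50.

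Genes of the endoplasmic reticulum and of glycosylation had 33 members with a median of 0.46, 7 above 1 and 1 below −1. Besides B4GALT6 and TRAM2, values above 1 were listed for MBTPS1, the protease that activates SREBP and ATF6 (1.29), MMGT1, a subunit of the membrane insertase EMC (1.17), SEL1L, of the degradation complex (1.09), SPCS3, of signal peptidase (1.06), and RPN2, of oligosaccharyltransferase (1.05). The last 5 were named after their values were seen. ASNA1, which delivers tail-anchored proteins, had 0.91. CSGALNACT1 and B4GALT2, both enzymes that add sugars, had −0.98 and −1.57.

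Vesicle transport genes, which act after the endoplasmic reticulum, had 26 members with a median of 0.06, 1 above 1 and 1 below −1. GOLGA3, a golgin, had 1.28 and STXBP3, a syntaxin-binding protein, −1.26. SNX8, a sorting nexin, had 0.92. Autophagy and lysosome genes had 19 members with a median of −0.13, of which 2 lay above 1 and 2 below −1. SLC17A5 was highest and TECPR2, an autophagy factor, lowest with −1.30. ATG4D, the protease that trims LC3 proteins, and GAA, the acid glucosidase, had −0.41 and −0.23.

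Solute carriers and ion pumps had 29 members, a median of 0.22, 6 above 1 and 1 below −1. After SLC17A5, the members above 1 included SLC29A1, a nucleoside transporter (1.53), and SLC20A2, a phosphate transporter (1.46), both named after their values were seen. SLC6A9, a glycine transporter, and SLC46A3, a lysosomal carrier, were the most abundant and had −0.36 and 0.05. ATP6V0A2, a subunit of the proton pump of acidic organelles, was lowest with −1.28. Transport proteins thus reached from 2.16 to −1.28.

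Nuclear-encoded mitochondrial genes had 11 members with a median of 0.32, 1 above 1 and 0 below −1. NDUFA2, of respiratory complex I, had 1.05 and TIMM8B, a chaperone of the intermembrane space, −0.60. Heat shock and folding genes had 10 members, a median of 0.26, 2 above 1 and 0 below −1. CCT5, a subunit of the TRiC chaperonin, had 1.40, and PPIF, the mitochondrial cyclophilin, 1.38. FKBP15 was lowest with −0.96 and BAG4, a cochaperone, had 0.14.

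Cytoskeleton and motor genes had 18 members with a median of −0.34, 2 above 1 and 3 below −1. SEPT2, a septin, had 1.66 and CFL2, a cofilin, 1.33 (named after its value was seen). ARHGAP4 was the lowest and the most abundant, and DYNLT1, a dynein light chain, had 0.60. TUBB4B, a beta tubulin, and KIF5C had −1.12 and −1.37, the former named after its value was seen. Of the 18, 8 lay above the median of all members, so the low median goes with a wide spread.

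Adhesion, matrix and guidance genes numbered 25, with a median of 0.19, 4 above 1 and 2 below −1. ADAM9, a surface protease, was highest with 1.30, SEMA4C lowest with −1.47. EFNA1 and RTN4R, the Nogo receptor, were the most abundant and had 0.44 and −0.36. Nuclear pore and transport genes had 11 members with a median of 0.14, 2 above 1 and 1 below −1. Between NUPL1 at 1.99 and RANGAP1, the activator of Ran, at −1.21 stood NUP43 with 0.40 and NXT2 with 0.05.

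**Figure D4:**
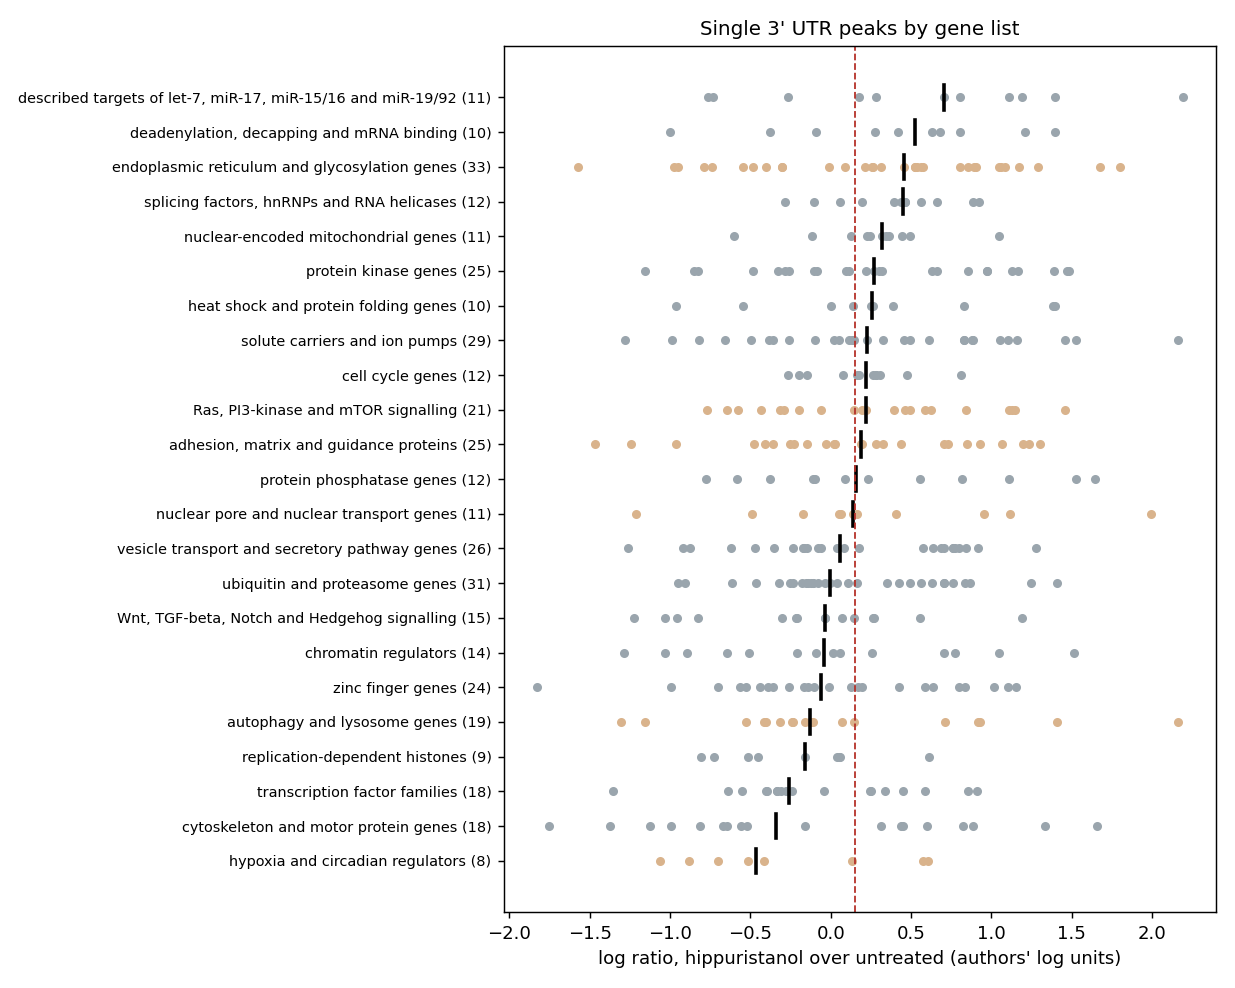
Log ratio of hippuristanol over untreated (x axis, authors' log units) of each single 3′ UTR peak (points) in the lists with at least 8 members (y axis, number of members in brackets), with black bars at the list medians and a dashed line at 0.15, the median of all members. Tan points mark lists put together after member names were seen, and the points of nearly every list span both sides of the dashed line.

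Pairs of related genes were no closer in log ratio than other pairs of members. For 33 pairs of paralogs among the members, chosen by name, the median absolute difference in log ratio was 0.78, against 0.67 over all 392055 pairs of members, and 19 pairs lay on the same side of the median. B4GALT2 and B4GALT6 differed by 3.37. YTHDF2 and YTHDF3, readers of methylated adenosine, had −0.53 and 1.55. ERLIN2 and ERLIN1, of lipid rafts in the endoplasmic reticulum, had −0.79 and 0.89. The syndecans SDC1 and SDC2 had 0.02 and 0.03. These pairs were named after their values were seen.

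The GC content of the 3′ UTR was the property most related to the log ratio among those examined. In the quartile of members with the lowest GC content (22.1% to 34.5%) the median log ratio was 0.21, with 27 members above 1 and 7 below −1. In the middle quartiles it was 0.26 and 0.14. In the highest (49.2% to 83.3%) it was −0.02, with 17 above 1 and 20 below −1. Across 878 members Pearson's r was −0.18 and Spearman's rho −0.16, a description over genes that share the same libraries. The 3′ UTR peaks of genes with more rows followed the same course, with 0.23, 0.30, 0.12 and −0.02 over the same GC ranges.

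Level moved with GC content. GC-rich 3′ UTRs had peaks with higher log averages (Pearson's r 0.40, Spearman's rho 0.37), and the course of the log ratio differed by level. Among members above the median log average, the medians over the GC quartiles were 0.29, 0.28, 0.14 and −0.09. Below it they were 0.18, 0.21, 0.12 and 0.21, with no fall. Among the 10 lowest members, ARHGAP4 (65.2% GC), CC2D1A (67.1%), ANKRD13B (63.1%) and B4GALT2 (60.4%) have GC-rich 3′ UTRs, whereas ZNF224 (33.7%) and KIF5C (37.3%) do not. Among the highest, examples with AT-rich 3′ UTRs are LRIG3 (23.2%), B4GALT6 (30.3%) and BBIP1 (32.5%). The GC content of the other highest members is not given here. The part of level or of library preparation in the GC difference was not tested.

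**Figure D5:**
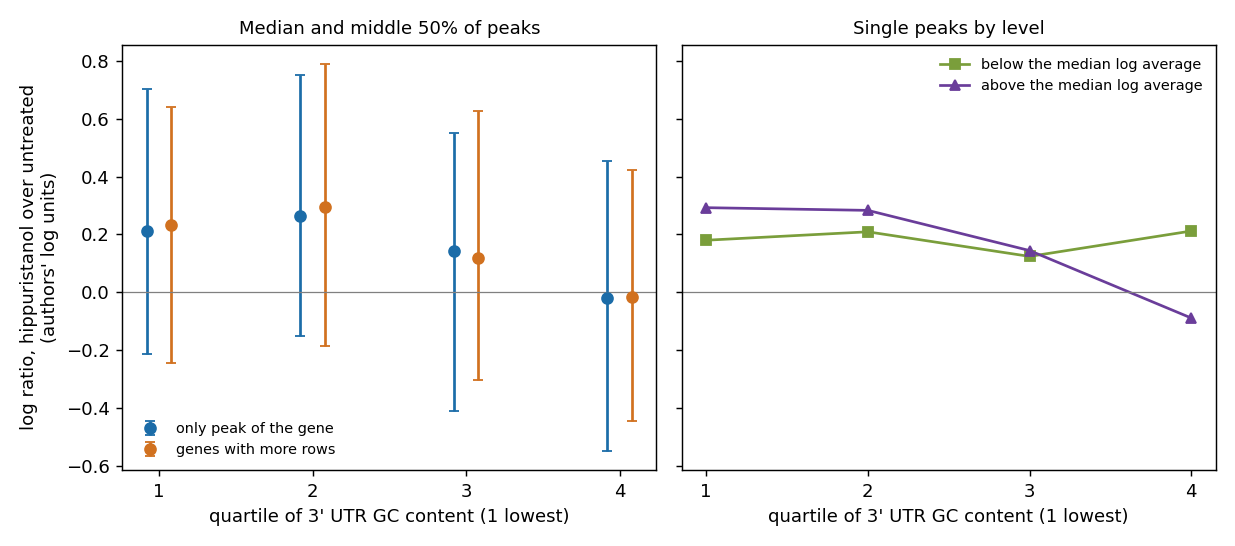
Log ratio of hippuristanol over untreated (y axis, authors' log units) by quartile of 3′ UTR GC content (x axis, 1 lowest). On the left, points are medians and bars the middle 50% of peaks for single peaks and for genes with more rows, and on the right, medians of single peaks above and below the median log average, where the line of the former falls to −0.09 in quartile 4.

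Only the longest members had lower log ratios. The quartile of members with the longest peaks (46 to 104 nt) had a median of −0.01, with 13 above 1 and 16 below −1, against medians of 0.17, 0.18 and 0.25 in the other quartiles from short to long. Across the 886 members, peak length and log ratio were hardly related (Pearson's r −0.07, Spearman's rho −0.05). Over the same length ranges, 3′ UTR peaks of genes with more rows had medians of 0.33, 0.20, 0.13 and 0.11. Longer peaks of members also lay in more GC-rich 3′ UTRs (Spearman's rho 0.21). ENO2 with 65 nt, CC2D1A with 66 nt and SEMA4C with 57 nt are of this kind, but ZNF224 and B4GALT2, with 21 and 23 nt, are short. The length of the 3′ UTR showed no such course: its quartiles had medians of 0.19, 0.14, 0.11 and 0.16.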

How the data were processed

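Ago2 CLIP and RNA-seq were labelled for 16 libraries. The authors' deposited table holds, per the file headers, a normalized log average and a treated-over-untreated log ratio per peak, which are scores with no depth or library attached. All peak values printed are the authors' own. The tools DESeq, TopHat and Bowtie 0.12.8 and the build hg19 are named per the submitters' processing notes, with no role or order. The peak caller, its filters, the normalization, the log base, the pooling and whether starts count from 0 or 1 are steps not given in the sources used here. Peak coordinates are hg19 as deposited, and seed match coordinates are GRCh38. The builds were not compared.

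Of the rows, 50 pairs with the same gene and values were counted once. No filter on level was applied. 3′ UTRs came from GENCODE 29, for 839 members by RefSeq identifier and 39 by symbol, taking the longest where several matched. MicroRNAs came from RefSeq. Python 3.11.15, pandas 2.3.3 and numpy 2.4.6 were used, and the functions were tested on simulated data. The members and lists were chosen with earlier results of these data known, and 6 lists after member names were seen. Genes named were the 10 highest and 10 lowest log ratios, the 8 highest log averages and, per list of at least 8, the 2 highest log averages and both extremes of the log ratio, and any member of smaller lists. A few of these genes are not reported here.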

Additional observations from a re-analysis of the deposited data

How the results depend on the processing

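No paired analysis was possible because the table holds values pooled over libraries, and for the same reason no replicate could be left out. Relative to the median of all peaks, the median log ratio of the members became 0.0011, with 62 members above 1 and 73 below −1. With a threshold of 1.5, 18 lay above and 5 below its negative. Among members at or above the median log average, a smaller set, 74 lay above 1 and 27 below −1. Over all members these counts were 102 and 43, so a lower count here is not a lower share. With 1 value per gene for genes with more rows, the difference in interquartile range became 0.25, from 0.027, since averaging over peaks narrows the other group. The GC difference in log ratio (lowest minus highest quartile, 0.23) was 0.38 for members above and −0.032 for those below the median log average, and 0.37 on the plus and 0.13 on the minus strand; these settings were chosen after seeing the data, and the cause was not tested. In all, 33 alternatives moved each value by less than the limits set for calling it moved. Among these were matching by RefSeq identifier alone and the count of 74 above 1. Pooled values limit every statement to this table.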

Other observations

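Members on the minus strand had a higher median log ratio than those on the plus strand. The 455 minus strand members had a median of 0.22 with 13 below −1, and the 431 plus strand members had 0.09 with 30 below −1. The counts above 1 were 51 on each strand. The shares below −1 were 2.86% on the minus and 6.96% on the plus strand, beside 4.22% of all distinct peaks. Those above 1 were 11.2% and 11.8%, beside 11.3%. Among 3′ UTR peaks of genes with more rows, the medians were 0.19 and 0.12, and 39 of 955 and 46 of 1053 lay below −1. Single peaks in coding sequence had 0.17 and 0.15. Of the 10 lowest members, ZNF224, B4GALT2, TACC1, CC2D1A, ENO2, ANKRD13B and KIF5C lie on the plus strand. The difference between strands was not tested.

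Chromosomes differed in how many members lay beyond 1. Over all distinct peaks, 11.3% lay above 1 and 4.22% below −1. Chromosome 10, with CPEB3 and BBIP1, had 41 members, of which 10 lay above 1 and 0 below −1, with a median of 0.33. Chromosome 4 had 23 members with a median of 0.58, of which 5 lay above 1 and 0 below −1. Chromosome 19, with ZNF224 and CC2D1A, had 68 members with a median of −0.04, of which 3 lay above 1 and 5 below −1. The median GC content of the 3′ UTRs was 36.6%, 37.0% and 54.1% in these 3 groups. Other chromosomes did not follow GC content: chromosome 15 had the lowest median, −0.18 over 17 members, at 37.1% GC, and chromosome 22 had 0.16 over 10 members at 50.1%. These chromosomes were named after their values were seen.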
